A study of Mus musculus with 6 samples.

Results

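The matrix metalloproteinases (Mmp), the Adamts proteases, their protease-free Adamts-like relatives (Adamtsl) and the tissue inhibitors of metalloproteinases (Timp) were examined in MLO-Y4 cells after low-intensity pulsed ultrasound (LIPUS). Within these families the genes were taken by name, as every gene of the deposited table whose symbol is Mmp, Adamts, Adamtsl or Timp followed by a number. This gave 51 of 53797 genes, made up of 23 Mmp, 19 Adamts, 5 Adamtsl and 4 Timp genes. MLO-Y4 is an established murine cell line with features of osteocytes, the cells embedded in bone matrix. The LIPUS group was MLO-Y4 stimulated for 20 min at 1.5 MHz and 30 mW/cm2, and the Control group was untreated MLO-Y4, with 3 libraries in each. Both groups were grown in the same serum-containing medium on collagen-coated wells of a shared plate, the control wells lying over unplugged transducers, and RNA was taken 30 min after the stimulation. The line is a single cell line in culture, without the mineralized matrix and the neighbouring cells of bone.

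Mmp enzymes are zinc-dependent proteases that are made as inactive precursors and cut collagens, gelatins and other matrix proteins once activated. Adamts enzymes share the metalloproteinase fold and act on procollagens and on proteoglycans such as aggrecan and versican, whereas Adamtsl proteins keep the accessory domains without the protease. Timp proteins bind to the active site of these enzymes and block it. In bone, osteocytes use Mmp13 and other matrix proteases to remodel the matrix around their lacunae, and Mmp13 is also the main collagenase of the cartilage callus in fracture repair.

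The table holds a single pooled FPKM (fragments per kilobase of exon, scaled to the mapped fragments) for each group, so no spread between libraries or standard error can be computed from it, and no test was run here. Of the authors' own comparison only the test status was used. Differences are given as the log2 ratio of LIPUS over Control after adding 0.1 FPKM to both values, and a gene was counted as higher or lower in LIPUS when it differed by at least 1.5-fold and reached 1 FPKM in at least 1 group. The study describes a control library that lay apart from the other controls in its principal component analysis. Its values could not be left out of the pooled level, and its part in the results was not tested. The authors propose that stimulation may have leaked into control cells of the shared plate, which was not tested here either. Of the osteocyte markers, Dmp1 was at 7.65 FPKM in LIPUS and 3.04 in Control, and Pdpn was at 402 and 295. Gja1 was at 170 and 176, Bglap at 1.58 and 0, and Phex at 0.190 and 0. Sost, Mepe and Fgf23, which mark mature osteocytes, were listed at 0 in both groups. Markers of leukocytes and macrophages (Ptprc, Adgre1) and of endothelium (Cdh5, Kdr) were also listed at 0. The summed level of the 6 osteoclast and macrophage markers was 56.6 FPKM in LIPUS and 47.9 in Control, nearly all of it Ctsk. Within it, Cd68 was lower in LIPUS, at 1.72 and 5.32 FPKM, and Acp5 was higher, at 1.10 and 0.204. The fibroblast and mesenchymal markers summed to 1085 FPKM in LIPUS and 1268 in Control, with Thy1 at 0. Most of this was Col1a1 (731 and 891) and Col1a2 (303 and 334), which are also among the matrix substrates below. Pdgfra had the opposite sign, at 51.2 and 42.9. The endothelial markers summed to 0 and 0.496 FPKM, and the chondrocyte markers to 9.26 and 10.9 FPKM with Acan at 0.

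Mmp3, Adamts14 and Mmp13 had the largest fold differences of the genes of these families above 10 FPKM in at least 1 group, all higher in LIPUS, and Adamts14 was above that level in LIPUS alone. Their sequences just before the transcription start are shown because the letters known for transcription factors lie at different places in them. The sequences run 5′ to 3′ over the 250 bases before the start in the RefSeq annotation of GRCm38.p6. They lie at chr9:7272264-7272513 on the plus strand for Mmp13, chr9:7445572-7445821 on the plus strand for Mmp3 and chr10:61273420-61273669 on the minus strand for Adamts14. Capitals mark matches, on either strand, to the letters searched: TGANTCA for AP-1 (the Fos and Jun factors), TGTGGT for Runx, TATAAA for the TATA box, GGAATG for TEAD and GCGNGGGCG for Egr.
Mmp13: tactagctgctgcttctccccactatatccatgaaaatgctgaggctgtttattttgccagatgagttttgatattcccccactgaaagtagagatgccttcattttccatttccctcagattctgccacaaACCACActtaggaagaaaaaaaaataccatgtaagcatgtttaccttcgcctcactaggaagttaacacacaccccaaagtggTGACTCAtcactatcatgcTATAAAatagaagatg
Mmp3: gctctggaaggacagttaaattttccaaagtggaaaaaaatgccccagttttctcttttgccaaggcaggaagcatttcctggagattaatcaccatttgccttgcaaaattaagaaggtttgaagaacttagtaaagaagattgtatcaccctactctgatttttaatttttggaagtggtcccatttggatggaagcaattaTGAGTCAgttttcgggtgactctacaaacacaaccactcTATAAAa
Adamts14: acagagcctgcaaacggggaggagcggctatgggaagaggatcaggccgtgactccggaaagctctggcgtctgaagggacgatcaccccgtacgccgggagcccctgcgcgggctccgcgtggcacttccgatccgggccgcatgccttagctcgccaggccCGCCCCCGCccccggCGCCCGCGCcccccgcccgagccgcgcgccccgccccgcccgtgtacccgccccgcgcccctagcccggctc

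The Mmp13 sequence held an AP-1 match that began at position -35 from the start, a TATA box at -16 and a Runx match, on the other strand, at -118. The Mmp3 sequence held an AP-1 match at -46 and a TATA box at -7, and no Runx letters. The Adamts14 sequence held neither AP-1 nor TATA letters, but Egr matches at -87 and -72 and, past the printed stretch, at 25 after the start. No capitals of different motifs overlapped in these sequences. A match is a run of letters and not a measured binding site, and no binding data were analysed here.

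Mmp13 and Mmp3 lie in a block of 10 Mmp genes on chromosome 9 (GRCm38, 7272514 to 7699585, a span of 427 kb). With 250 bases before and 50 after the start, 36 of the 51 genes had a RefSeq promoter entry, and the AP-1 letters were found in 8 of them, all 8 in this block. None of the 26 genes outside the block with an entry held the letters. The 8 are neighbouring genes of the same family, so they are not independent cases. Over all 32851 entries the share with the AP-1 letters was 7.81%. Of the 15 genes of these families at 1 FPKM or more with an entry, 2 held the letters, Mmp13 and Mmp3. Over the 11368 entries of all genes at that level the share was 4.92%. All 8 genes of the block with the AP-1 letters also held the TATA letters. Both were held by 1.54% of all entries and by 0.475% of those of genes at 1 FPKM or more. The AP-1 match of each of the 8 is shown in the order of the genes along the chromosome, with 20 bases on either side, because genes that hold the letters had very different levels. Capitals mark the AP-1 letters and, for Mmp13, the TATA box 12 bases further on. The windows lie at chr9:7272459-7272505, chr9:7347310-7347356, chr9:7388093-7388139 (minus strand), chr9:7445756-7445802, chr9:7464048-7464094, chr9:7502259-7502305, chr9:7628116-7628162 and chr9:7692007-7692053, from Mmp13 to Mmp7.
Mmp13: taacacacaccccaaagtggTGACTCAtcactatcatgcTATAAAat
Mmp12: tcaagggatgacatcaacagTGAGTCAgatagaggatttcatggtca
Mmp1b: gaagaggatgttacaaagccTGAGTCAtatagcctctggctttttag
Mmp3: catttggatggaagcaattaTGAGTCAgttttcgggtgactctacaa
Mmp1a: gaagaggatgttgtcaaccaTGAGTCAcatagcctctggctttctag
Mmp10: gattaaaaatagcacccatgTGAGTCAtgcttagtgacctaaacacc
Mmp20: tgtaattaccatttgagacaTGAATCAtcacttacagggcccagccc
Mmp7: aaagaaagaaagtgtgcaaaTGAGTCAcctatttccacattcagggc

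Of these 8 genes, Mmp13 was at 446 FPKM in LIPUS and 245 in Control, and Mmp3 was at 99.0 and 40.5. Mmp10 was at 0.140 and 0, and Mmp12, Mmp1b, Mmp1a, Mmp20 and Mmp7 were listed at 0 in both groups. The genes of the block without the letters, Mmp8 and Mmp27, were also listed at 0. The sequences before Mmp1a and Mmp1b, at 0, carry the same TGAGTCA as that before Mmp3. Genes with the AP-1 letters thus included the highest of the block and genes at 0.

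**Figure D1:**
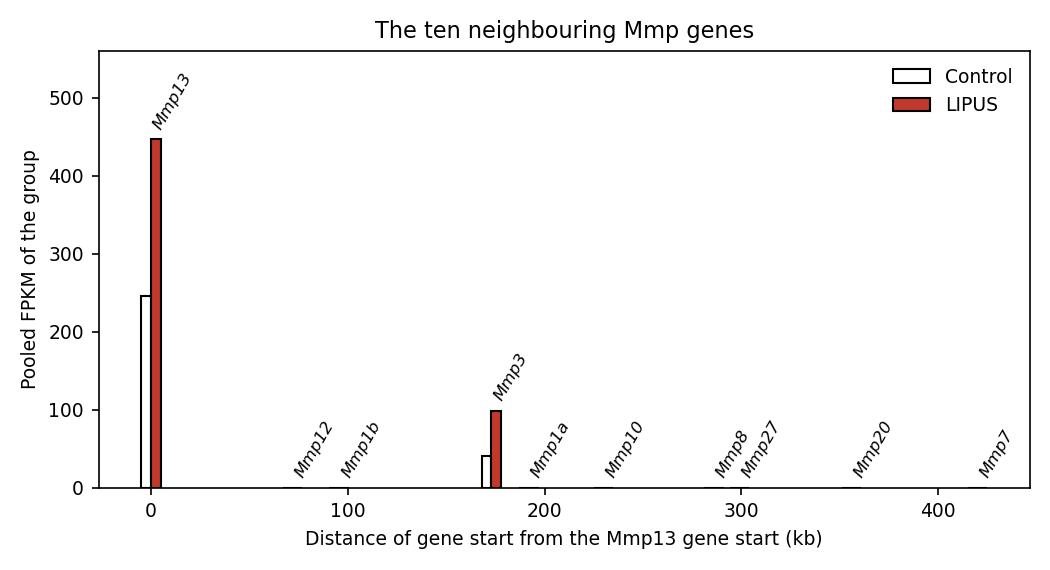
Pooled FPKM of the 10 neighbouring Mmp genes of chromosome 9, plotted against the distance of each gene start from the Mmp13 start in kb, with open bars for Control and filled bars for LIPUS (1 pooled value per bar, 3 libraries each). Mmp13 and Mmp3, 173 kb apart, carry visible bars, Mmp10 at 0.140 FPKM in LIPUS is too low to see, and the other 7 are at 0.

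Mmp13 (ENSMUSG00000050578, chromosome 9, 7272514 to 7283331), the collagenase that cuts fibrillar collagen, had the largest difference in FPKM of all proteases listed here. It was at 446 FPKM in LIPUS and 245 in Control, which is 1.82-fold higher and a log2 ratio of 0.86. Of all genes at 1 FPKM or more, 5.20% were higher in LIPUS by as much, and among genes of 100 FPKM or more 1.36% were. It passed Mmp2 in order of level: the ratio of Mmp13 to Mmp2 was 1.52 in LIPUS and 0.994 in Control. In the whole table, 212 genes had a higher FPKM than Mmp13 in LIPUS and 352 did in Control. The other collagenase genes of the mouse, Mmp1a, Mmp1b and Mmp8, were listed at 0 in both groups, so that Mmp13 was the only one of these 4 secreted collagenases with a level above 0.

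Mmp3 (ENSMUSG00000043613, chromosome 9, 7445822 to 7455975), a stromelysin that cuts proteoglycans and fibronectin and can activate other Mmp precursors, was at 99.0 FPKM in LIPUS and 40.5 in Control. This is 2.44-fold higher, with a log2 ratio of 1.29, the highest of the 22 genes of these families at 1 FPKM or more. Of all genes at 1 FPKM or more, 2.68% were higher by as much, and in the class of 10 to 100 FPKM 0.466% were. Of the other stromelysins, Mmp11 was at 14.2 FPKM in both groups, and Mmp10, at 0.140 FPKM in LIPUS and 0 in Control, was too low to compare. Mmp13 and Mmp3 together came to 545 FPKM in LIPUS and 286 in Control, or 49.6% and 36.1% of the summed level of all 23 Mmp genes.

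The gelatinase Mmp2, which cuts denatured collagen, was at 293 FPKM in LIPUS and 247 in Control, a log2 ratio of 0.25. Mmp14, the membrane-type protease that activates the Mmp2 precursor, was at 188 and 180 FPKM, a log2 ratio of 0.06. Both therefore lay within 1.5-fold. The other gelatinase, Mmp9, known from osteoclasts, was listed at 0.727 FPKM in LIPUS and at 0 in Control. Of the other 5 membrane-type genes, Mmp15 was at 0.130 FPKM in LIPUS and 0.176 in Control, Mmp16 was at 0.319 and 0, Mmp17 was at 0.0348 and 0.118, and Mmp24 and Mmp25 were listed at 0. Mmp14 thus supplied nearly all of the membrane-type signal.

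Mmp28 (epilysin; chromosome 11, 83440768 to 83463071) was at 7.45 FPKM in LIPUS and 4.91 in Control, 1.52-fold higher and just past the threshold, which it missed with a pseudocount of 1 and under both other scalings of the FPKM (log2 ratios of 0.52, 0.58 and 0.55). In its class of 1 to 10 FPKM, 15.7% of all genes were higher by as much. Mmp23 and Mmp19 had the opposite sign. Mmp23 was at 35.5 FPKM in LIPUS and 43.3 in Control, a log2 ratio of -0.29, and Mmp19 was at 15.1 and 17.5, a log2 ratio of -0.21. Both stayed within 1.5-fold. The annotated bounds of Mmp28, Mmp19 and Mmp11 overlap another gene on the opposite strand. The libraries were stranded, but use of the strand in counting is not stated, and fragments of the neighbours may not have been separated.

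**Figure D2:**
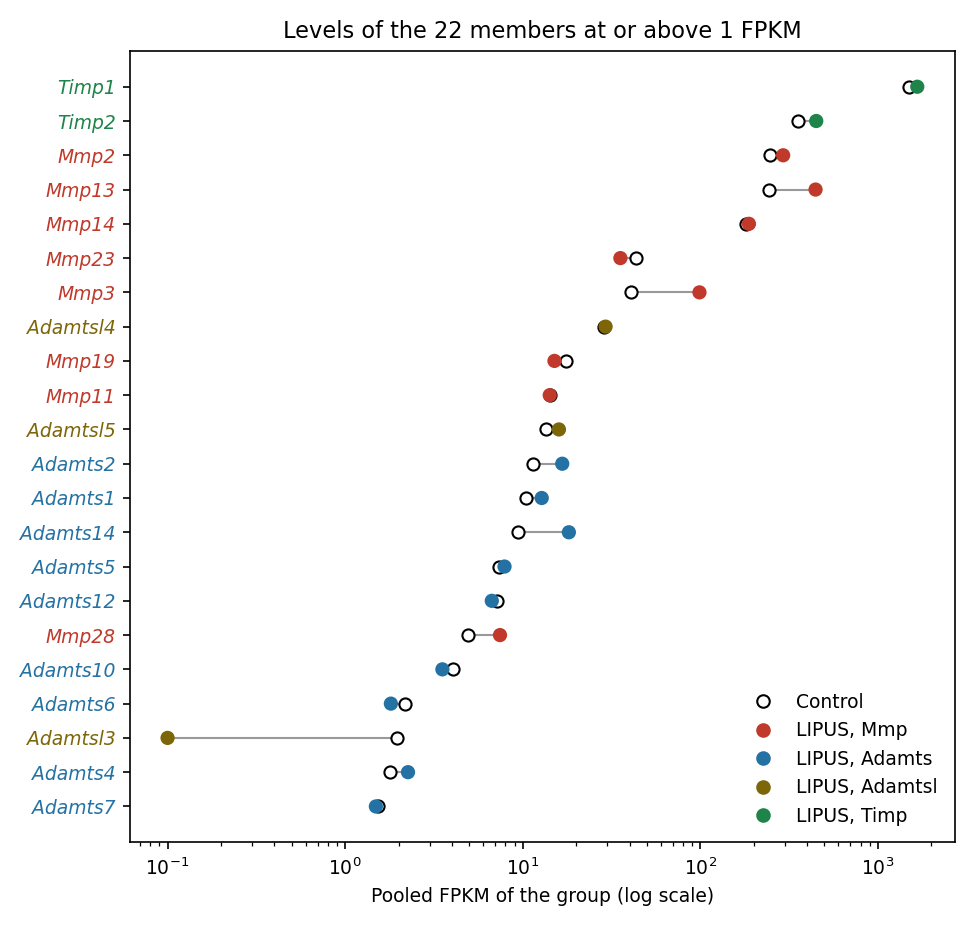
Pooled FPKM on a log scale for the 22 genes of the Mmp, Adamts, Adamtsl and Timp families at 1 FPKM or more in at least 1 group, ordered by their Control level. Open circles are Control and filled circles are LIPUS (1 pooled value each, 3 libraries per group), with a colour for each family. Long lines join the circles of Mmp3, Mmp13 and Adamts14, higher in LIPUS, and of Adamtsl3, lower in LIPUS.

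Of the Adamts genes at 1 FPKM or more, Adamts14 and Adamts2, which remove the N-propeptide of fibrillar procollagens, had the largest log2 ratios. Adamts14 (ENSMUSG00000059901, chromosome 10, 61197112 to 61273438, minus strand) was at 18.2 FPKM in LIPUS and 9.38 in Control, 1.94-fold higher, with a log2 ratio of 0.95. Adamts2, which acts on the same substrates, was at 16.7 and 11.5 FPKM, 1.46-fold higher and just short of the threshold, and Adamts3, the remaining N-proteinase, was listed at 0 in both groups. Of all genes at 1 FPKM or more, 4.51% were higher by as much as Adamts14. Among genes whose higher value was 10 to 100 FPKM, 1.27% were higher by as much as Adamts14, which reaches that class only through its LIPUS value. In classes set by the Control value, where it falls in 1 to 10 FPKM, the share was 4.01%, and in classes set by the mean of the groups it was 0.934%. For Adamts2, which is in the class of 10 to 100 FPKM by either value, the share in that class was 5.13%. Adamts14 took the rank 9 among the 22 genes in LIPUS and 14 in Control.

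The Adamts enzymes that cut aggrecan and versican and reached 1 FPKM were within 1.5-fold. Adamts1 was at 12.8 FPKM in LIPUS and 10.4 in Control, a log2 ratio of 0.30. Adamts5, the main aggrecanase of mouse cartilage, was at 7.90 and 7.37 FPKM, a log2 ratio of 0.10. Adamts4 was at 2.26 and 1.78 FPKM, a log2 ratio of 0.33. Adamts9 was at 0.558 FPKM in LIPUS and 0.362 in Control, and Adamts8, Adamts15 and Adamts20 were listed at 0. The cartilage oligomeric matrix protein proteases Adamts7 and Adamts12 were close to equal in the groups. Adamts7 was at 1.49 FPKM in LIPUS and 1.53 in Control, and Adamts12 was at 6.70 and 7.21. Adamts10, whose product binds fibrillin microfibrils, was at 3.53 FPKM in LIPUS and 4.06 in Control, and Adamts6 was at 1.81 and 2.18.

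Adamtsl3 (chromosome 7, 82335694 to 82614450) was, of the genes of these families at 1 FPKM or more, the only one lower in LIPUS by 1.5-fold or more. It was at 0.10 FPKM in LIPUS and 1.95 in Control, a log2 ratio of -3.36 that became -1.42 with a pseudocount of 1 and -4.15 with one of 0.01. Its level is low, and it reached 1 FPKM, and so was counted as lower, only through its Control value. Cuffdiff gave it the status NOTEST, which it assigns to genes with too few fragments for a test. Among genes whose higher value was 1 to 10 FPKM, a class it also reaches only through Control, 1.97% were lower by as much. In classes set by the mean of the groups the share was 0.750%, and in classes set by the Control value it was 2.03%. Adamtsl4 and Adamtsl5, which bind fibrillin microfibrils or lie beside them, showed no such difference. Adamtsl4 was at 29.3 FPKM in LIPUS and 28.8 in Control, and Adamtsl5 was at 16.0 and 13.6. Adamtsl1 and Adamtsl2 were listed at 0.

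Timp1 and Timp2 were at higher levels than any protease of these families in both groups. Timp1 (chromosome X, 20870166 to 20874735), the secreted inhibitor of most Mmp enzymes, was at 1668 FPKM in LIPUS and 1497 in Control, a log2 ratio of 0.16. In the whole table, 38 genes had a higher FPKM than Timp1 in LIPUS and 42 did in Control. Timp2, which inhibits Mmp2 and also takes part in its activation with Mmp14, was at 450 and 356 FPKM, a log2 ratio of 0.34. In its level class 9.44% of all genes were higher by as much as Timp2. Timp3, the matrix-bound inhibitor that also blocks Adamts4 and Adamts5, was at 0.996 FPKM in LIPUS and 0.967 in Control, and Timp4 was listed at 0. The locus of Timp1 overlaps Syn1 on the other strand, and that of Timp2 overlaps Cep295nl on the same strand.

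The summed levels of both proteases and inhibitors were higher in LIPUS. The 23 Mmp genes came to 1100 FPKM in LIPUS and 793 in Control, 1.39-fold higher. Without Mmp13 the sums were 653 and 547, and without Mmp13 and Mmp3 they were 554 and 507, which is 1.09-fold. The difference in the Mmp sum thus lay mostly in Mmp13 and Mmp3. The 4 Timp genes came to 2119 and 1854 FPKM, 1.14-fold higher, of which Timp1 made up 78.7% and 80.8%. Without Timp1 they came to 451 and 357, 1.26-fold higher, so the order of the family differences turned: the Mmp sum without Mmp13 was 1.19-fold higher. The ratio of the Timp sum to the Mmp sum was 1.93 in LIPUS and 2.34 in Control. The Adamts genes summed to 72.7 and 56.2 FPKM, and the Adamtsl genes to 45.4 and 44.3. These are levels of mRNA, and protein or activity was not measured in these libraries.

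Among the 22 genes at 1 FPKM or more (8 Mmp, 9 Adamts, 3 Adamtsl and 2 Timp), 4 were higher in LIPUS by at least 1.5-fold, or 18.2%. They were Mmp3, Mmp13, Adamts14 and, in the settings that kept it, Mmp28. Of all 11999 genes at that level, 8.98% were higher. One gene, Adamtsl3, was lower (4.55%), against 9.26% of all genes, and it reached 1 FPKM in Control alone. The median log2 ratio of the 22 was 0.13, against -0.00047 for all genes, and 15 of them (68.2%) had a higher value in LIPUS than in Control, against 5995 of the 11999 genes. By family the median was 0.15 for Mmp, 0.10 for Adamts, 0.03 for Adamtsl and 0.25 for Timp.

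The spread of the ratio over all genes narrowed with level, so the share was also taken within classes of the higher of the group values, a split chosen after seeing the data. From 1 to 10 FPKM, 15.8% of all genes were higher and 16.7% lower by 1.5-fold. From 10 to 100 FPKM, 4.28% were higher, and at 100 FPKM or more, 3.40% were. Mmp28 fell in the lowest class by the value of either group and Adamtsl3 by its Control value alone, and there such differences were common. Mmp3 fell in the middle class and Mmp13 in the highest, by the value of either group, and there such differences were less common. Adamts14 fell in the middle class by its LIPUS value and in the lowest by its Control value. Cuffdiff gave the status OK, meaning enough fragments for a test, to 17 of the 22 genes. Adamts4, Adamts6, Adamts7, Adamts10 and Adamtsl3 had the status NOTEST. Of the 17, 14 were at a higher level in LIPUS, against 4139 of all 8145 genes with that status, with a median log2 ratio of 0.23 against 0.0042 for those genes.

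**Figure D3:**
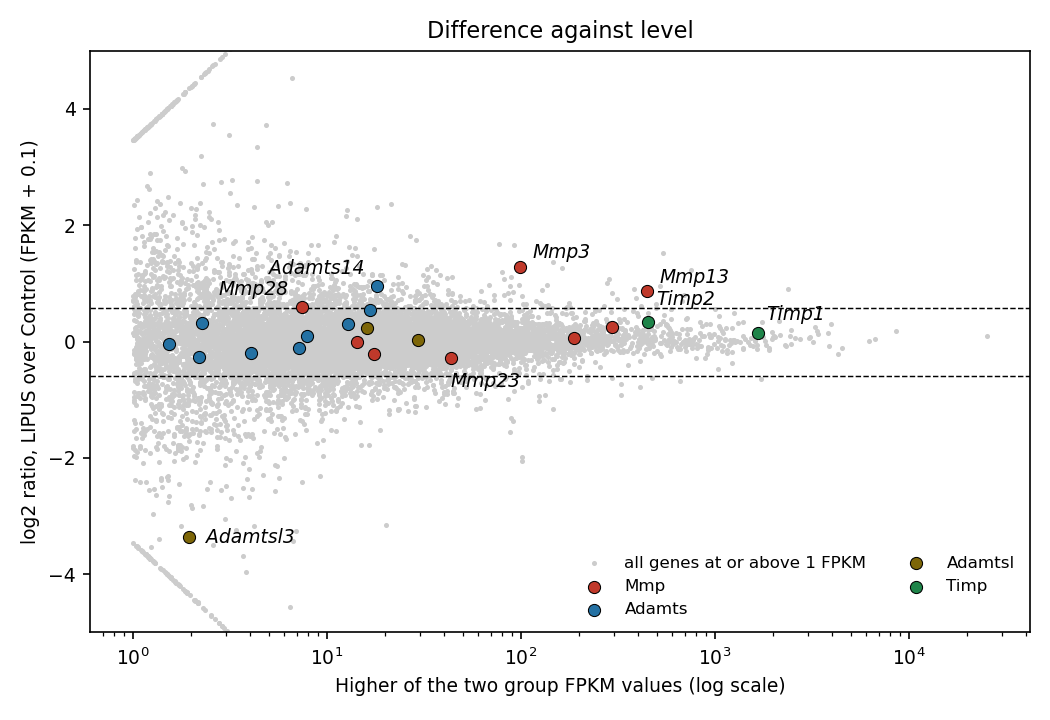
Log2 ratio of LIPUS over Control (FPKM + 0.1) against the higher of the group FPKM values on a log scale, for all 11999 genes at 1 FPKM or more (grey) and for the 22 Mmp, Adamts, Adamtsl and Timp genes (coloured, 1 point per gene). Dashed lines mark 1.5-fold, and 36 grey genes lie beyond the axis limits of 5. Mmp3 and Mmp13 lie above the upper line at levels where the grey cloud is narrow, Adamts14 is plotted at its LIPUS value of 18.2 FPKM, and Mmp28 and Adamtsl3 lie where it is wide.

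The remaining 29 genes were under 1 FPKM in both groups. For 19 of them both values were 0, made up of 10 Mmp, 6 Adamts, 2 Adamtsl and 1 Timp gene. In the table as a whole, 37321 genes were at 0 in both groups. Of the 10 genes between 0 and 1 FPKM, 5 had a value above 0 in LIPUS alone (Mmp9, Mmp10, Mmp16, Adamts16 and Adamts17) and none in Control alone. Of all 4477 genes in that range, 25.7% were above 0 in LIPUS alone and 27.1% in Control alone. The lowest values of single-transcript genes fell on steps, which may be single fragments, and in LIPUS the step for a gene of the length of Mmp10 was 0.139 FPKM. The Mmp10 value of 0.140 is equal to 1 such step. The Mmp13 level in LIPUS corresponds to about 5144 of these steps and the Mmp3 level to about 746. In Control, which showed steps of 2 sizes, they correspond to 2419 to 3260 steps for Mmp13 and 261 to 352 for Mmp3. The size of a step in fragments was not tested, and the spread between libraries remained unknown.

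Other genes that act with these proteases were taken from a list of 51, of which 36 reached 1 FPKM, and 5 of these were higher and 2 lower in LIPUS by 1.5-fold (median log2 ratio 0.08), against 8.98% and 9.26% of all genes. Plasmin and furin-type proteases activate Mmp precursors. Plau, the urokinase that makes plasmin, was at 416 FPKM in LIPUS and 271 in Control, a log2 ratio of 0.62, which was under 1.5-fold after rescaling to TPM. Plat and the urokinase receptor Plaur were within 1.5-fold, at log2 ratios of 0.49 and 0.33, and plasminogen itself (Plg) was listed at 0. Reck, a membrane-bound inhibitor of Mmp enzymes, was at 2.07 and 1.30 FPKM, a log2 ratio of 0.64, and was under 1.5-fold with a pseudocount of 1. Of the 7 related metalloproteinases at 1 FPKM or more none was higher and 1 was lower, Adam8, at 10.0 FPKM in LIPUS and 17.6 in Control.

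Of the matrix substrates, 10 of 15 reached 1 FPKM, with a median log2 ratio of -0.16. Collagen genes lay slightly lower in LIPUS, within 1.5-fold. Col1a1 was at 731 FPKM in LIPUS and 891 in Control, and Col1a2 was at 303 and 334. Dcn, the small proteoglycan decorin that binds collagen fibrils, was at 540 FPKM in LIPUS and 189 in Control. Its log2 ratio of 1.52 was the largest among the 36 genes at 1 FPKM or more of the list of 51. Vcan, a substrate of Adamts1 and Adamts5, was at 27.9 and 18.6 FPKM, a log2 ratio of 0.58, just short of the threshold.

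All 10 transcription factors known for Mmp promoters reached 1 FPKM, with a median log2 ratio of 0.24. Fosb and Junb, subunits of AP-1, were higher in LIPUS. Fosb was at 80.1 FPKM in LIPUS and 34.8 in Control, a log2 ratio of 1.20, and Junb was at 673 and 415, a log2 ratio of 0.70. Fos was at 22.5 and 15.2 FPKM, 1.48-fold higher, and Fosl2 had the opposite sign, with a log2 ratio of -0.22. Runx2, the osteoblast factor that acts on the Mmp13 promoter, was lower, at 14.8 FPKM in LIPUS and 24.4 in Control, a log2 ratio of -0.72. Jun, Jund and Fosl1 had log2 ratios of 0.31, 0.26 and 0.21, so 6 of the 7 Fos and Jun genes had a higher value in LIPUS, against 5995 of all 11999 genes, and 2 of the 7 by 1.5-fold or more, against 8.98%.

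**Figure D4:**
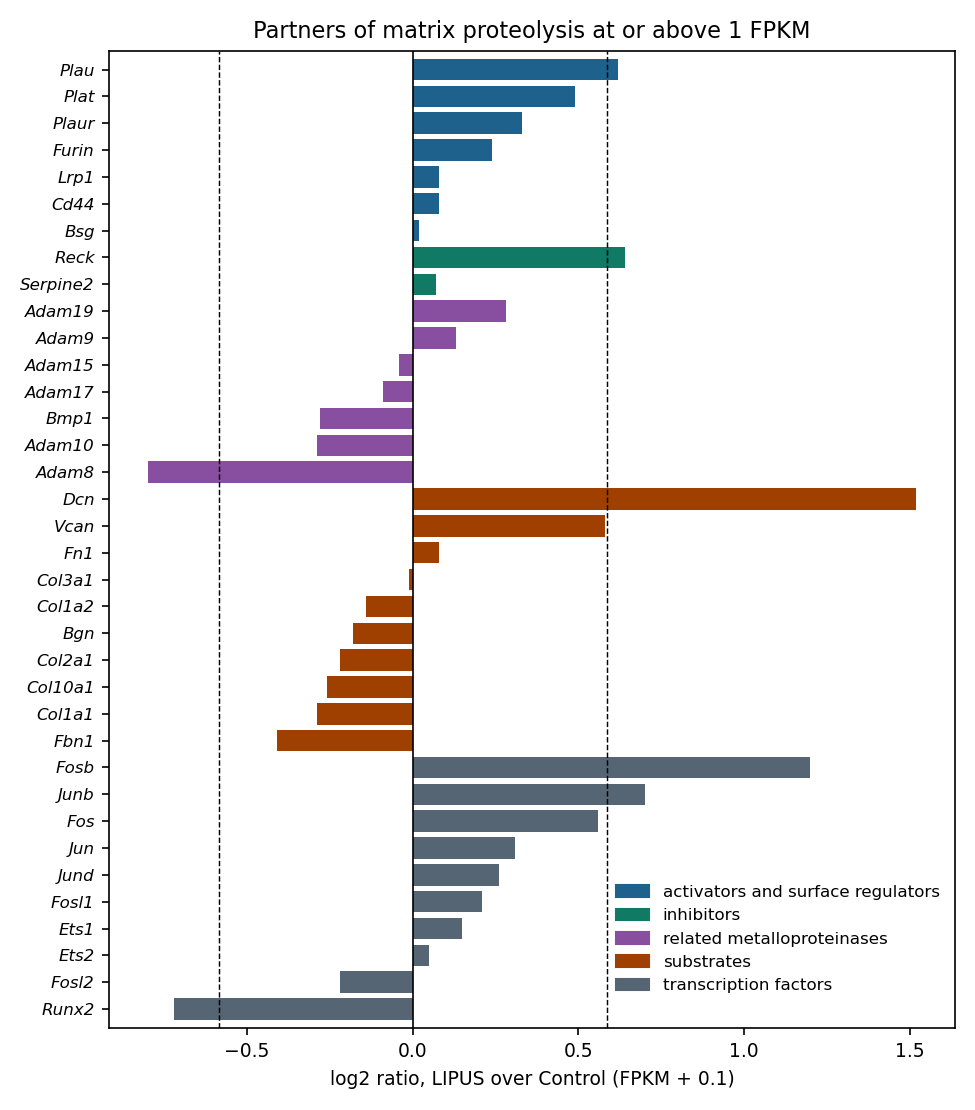
Log2 ratio of LIPUS over Control (FPKM + 0.1) for the 36 genes of the list of activators, inhibitors, related metalloproteinases, substrates and transcription factors at 1 FPKM or more, with 1 bar per gene from the pooled values. Dashed lines mark 1.5-fold. Dcn and Fosb have the longest bars upward in value, at 1.52 and 1.20, and Adam8 and Runx2 the longest downward, at -0.80 and -0.72.

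For the other motifs, the counts among the 15 genes at 1 FPKM or more with a RefSeq entry were small. Runx letters were found before Mmp13, Mmp14 and Mmp23, against 12.2% of the entries of all genes at that level. TATA letters were found before Mmp13, Mmp3 and Adamts1 (6.92% of those entries), TEAD letters before Timp1 (12.1%), and Egr letters before Adamts14, Mmp11 and Mmp14 (10.6%). Mmp28 had an entry with none of the 5 motifs. Of the genes with Egr letters, Adamts14 was higher in LIPUS by 1.94-fold while Mmp11 and Mmp14 lay at log2 ratios of 0.00 and 0.06.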

How the data were processed

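Total RNA from 3 LIPUS-treated and 3 control cultures of MLO-Y4 was sequenced as stranded, paired-end libraries with reads of 100 bases. The authors trimmed the reads (Trimmomatic 0.36), aligned them to GRCm38 (TopHat2 2.1.0, Bowtie2 2.2.6.0) and computed FPKM with Cufflinks and Ensembl transcripts. The submitters' processing notes give Cufflinks 2.1.1, and the methods give another version. The authors deposited a Cuffdiff table with 1 FPKM per group, pooled over its libraries, and a test status. Its columns of log2 fold changes, test statistics, p-values and q-values were not used. The table holds no counts, so library depth cannot be read from it, and without values per library no test was run. The study describes the RNA samples of a group as biological replicates from independent repeats, while its statistics section lists the RNA-seq as an exception to repeated experiments.

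Ratios were computed as log2((LIPUS + 0.1)/(Control + 0.1)). Genes of at least 1 FPKM in either group were counted at 1.5-fold. Every family member of at least 1 FPKM is named, as are members under 1 FPKM where their class was otherwise empty or where they are known in bone. Other members under 1 FPKM were named after their values were seen. The gene families and lists were chosen with earlier results of these data known, and some of the genes are not reported here. Positions and exonic lengths came from GENCODE M21 (GRCm38), and promoters from RefSeq (GRCm38.p6; 36 of 51 genes matched). Motifs were searched on both strands. Fragment steps were read from low FPKM values of single-transcript genes longer than 1 kb, with 150 bases taken off the length. Other pseudocounts (1, 0.01), log2 thresholds (0.32, or 2-fold), minimum levels and scalings were tried. Python 3.11.15, numpy 2.4.6, pandas 2.3.3 and matplotlib 3.10.9 were used. The ratio and the 1.5-fold count were tested on the Control values with known differences set in some genes, and the other steps were not tested in this way.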

Additional observations from a re-analysis of the deposited data

How the results depend on the processing

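The 4 genes of these families higher in LIPUS, out of 22, became 1 at 2-fold and 7 at a log2 threshold of 0.32. With no minimum level there were 8 of 32, and at a minimum of 5 FPKM or with status OK 4 of 17. The single lower gene became 3 with no minimum and 0 at a minimum of 5 FPKM or with status OK alone, as Adamtsl3 lies under both limits. The share of all genes higher was 4.01% at 2-fold, 18.0% at 0.32, 15.5% with no minimum, 5.16% at a minimum of 5 FPKM and 4.64% with status OK. The share lower was 16.6% with no minimum, 5.66% at a minimum of 5 FPKM and 4.67% with status OK. The median log2 ratio of 0.13 became 0.12 with a pseudocount of 1 or median-ratio scaling, 0.08 after rescaling to TPM, 0.19 with no minimum, and 0.23 at a minimum of 5 FPKM or with status OK. Of the list of 51 genes that act with them, the 5 higher genes, out of 36, became 2 at 2-fold and 9 at 0.32. The 2 lower genes became 0 at 2-fold (4.01% of all genes) and 5 of 43 with no minimum. With a pseudocount of 1, 4 of the 36 were higher, without Reck, against 6.70% of all genes. At a minimum of 5 FPKM and with status OK, 4 of 34 were, again without Reck. As TPM, 4 of 36 were higher, without Plau, against 8.35% of all genes. With no minimum, 7 of 43 were. The Mmp sum fold of 1.39 became 1.19 without Mmp13, and the Timp sum fold of 1.14 became 1.26 without Timp1. Mmp28 was under 1.5-fold with a pseudocount of 1, with median-ratio scaling and as TPM, whereas Mmp3, Mmp13, Adamts14 and Adamtsl3 stayed past it in these settings and with a pseudocount of 0.01. The sign of Mmp11 turned under both scalings and that of Adamtsl4 as TPM, and the scalings moved the median of all genes by -0.010 and -0.046. Thresholds and minimum levels change which genes are counted, and for the other settings the cause was not tested. No paired analysis was possible because the table holds 1 pooled value per group, and leaving out each replicate could not be run for the same reason.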

Other observations

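In protease and inhibitor families beside these, chosen after seeing the data, the secreted serine protease Htra4 was at 35.3 FPKM in LIPUS and 17.2 in Control, a log2 ratio of 1.03, and the 4 Htra genes had a median log2 ratio of 0.43. Of the 8 Adam genes at 1 FPKM or more, Adam3 was higher (3.91 and 1.23 FPKM) and Adam8 lower. Of the 10 Serpin genes at that level, Serpina3n was higher, at 6.39 FPKM in LIPUS and 2.55 in Control, and Serpinb1a was lower, at 3.77 and 6.37. The Serpin median was 0.01. Of all genes at 1 FPKM or more 8.98% were higher and 9.26% lower, so the counts in the Adam and Serpin families were near the share over all genes.

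Low values were those under 0.35 FPKM for 1 kb of effective length, and a value was counted on a step when it lay in a run of bins of 0.01 with at least 20 genes each. The steps had a size of 0.219 FPKM for 1 kb of effective length in LIPUS, which held for 97.1% of its 556 low values. In Control, steps of 0.190 held for 37.1% and steps of 0.256 for 59.5% of 588 low values. If a step is 1 fragment and each pooled FPKM is a mean over 3 libraries, the steps correspond to about 1520000 fragments per library in LIPUS and to about 1750000 and 1300000 in Control. The methods state a larger depth, so a step may hold more than a single fragment, and the source of the second step size in Control was not tested.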
